A study of Mus musculus with 5 samples.

Results

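The Ccl2-Ccl11 chemokine cluster is a row of small genes on mouse chromosome 11 that encode secreted CC chemokines. It was taken here as 6 of the 21938 protein-coding genes of the mm10 GENCODE M21 annotation, named by symbol: Ccl2, Ccl7, Ccl11, Ccl12, Ccl8 and Ccl1. JunB and H3K27ac peaks were assigned to the cluster when they lay within 50 kb of an annotated transcription start site (TSS) of any of these genes. Merging the overlapping JunB peaks of all libraries gave 7 regions in the cluster, out of 19101 JunB regions in the whole genome. In mm10 the plus strand carries, in order, Ccl2 (chr11:82035571-82037453), Ccl7 (chr11:82045712-82047525), Ccl11 (chr11:82057823-82062955), Ccl12 (chr11:82101845-82103400) and Ccl8 (chr11:82115185-82116799). Ccl1 (chr11:82176657-82305690) is on the minus strand and has a second, distant TSS of a long transcript, so that the window reached from 81985571 to 82355690 and covered 344.2 kb in 2 blocks.

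The study asked where the transcription factor JunB sits on DNA in muscle stem cells (MuSCs) of young and aged mice. Binding was mapped with CUT&RUN, in which an antibody directs a nuclease to cut and release the DNA around the bound protein. The cells were sorted from hindlimb muscle as CD45-, CD31-, SCA1- and VCAM+ cells, where VCAM marks MuSCs and the other markers remove blood cells, endothelium and other mesenchymal cells. There were 3 JunB libraries from young mice, 1 JunB library from aged mice and 1 library for H3K27ac, the acetylated histone found at promoters and enhancers in use. The aged mice were C57BL/6, and the age behind the H3K27ac library was not given. Sample titles and characteristics called the JunB groups Young and Aged, whereas the design text of the series named DMSO and MVC treated mice, so the groups were taken from the sample labels. No knockout or untargeted antibody library was used here.

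With 1 aged library, no test between the ages could be made. All comparisons were read as values beside the spread of the 3 young libraries, and age cannot be told apart from library. The titles called the young libraries biological replicates, without saying which animals each came from. The deposited files were peak lists without read numbers, and the depth behind each peak was unknown. The lists ran from 3863 to 14123 peaks for JunB and reached 39865 for H3K27ac. They also started at different thresholds, with a lowest −log10 p of 3.01, 5.33 and 5.22 in Young 1, 2 and 3, of 3.01 in the aged list and of 3.96 in the H3K27ac list. In a supplementary peak sheet of the study, of which a part was read, the rows under the young heading matched the list labelled aged, and the rows under the aged heading matched young lists. The number of aged JunB peaks in the study's text and the number of them on H3K27ac equal those of the list labelled aged, and the GEO labels were used. The number of young JunB peaks in that text equals that of none of the 3 young lists. An H3K27ac peak lay within 3 kb of a TSS for 6 of 8 MuSC marker genes, with none at Pax7 or Myf5, which had 1 and 4 peaks within 50 kb. The same held for 1 of 5 fibro-adipogenic progenitor markers (Dcn), 1 of 6 markers of CD45+ cells (Csf1r), 3 of 5 endothelial markers and 2 of 5 myofiber markers. Over all protein-coding genes the share within 3 kb was 49.8%, and within 50 kb it was 76.6%. Within 50 kb an H3K27ac peak lay at 8 of 8 MuSC markers and 2 of 6 markers of CD45+ cells. The progenitor, endothelial and myofiber lists had 4 of 5 each within 50 kb. Ptprc, Adgre1, Itgam and C1qa of the CD45+ list had 0 H3K27ac peaks within 50 kb, whereas Cd68 had 7. JunB peaks within 3 kb lay at 2, 3, 1 and 5 of 8 MuSC markers in Young 1, 2, 3 and aged. For CD45+ cells the marker in each of the 4 libraries was Cd68 alone. The counts were 0, 0, 0 and 2 of 5 for progenitors, 1, 0, 0 and 1 of 5 for endothelium and 1, 1, 0 and 1 of 5 for myofibers. Of all protein-coding genes, 11.0%, 7.74%, 5.91% and 23.9% had such a peak. Endothelial and progenitor cells can also make these chemokines. Their part in the peaks below, and that of CD45+ cells, was not tested.

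CC chemokines are small secreted proteins that attract white blood cells through G protein-coupled receptors. Ccl2, Ccl7 and Ccl12 draw monocytes, largely through the receptor Ccr2, and Ccl11 is an eotaxin that draws eosinophils through Ccr3. Ccl1 acts through Ccr8, which mouse Ccl8 also activates. Several of these genes belong to the senescence-associated secretory phenotype, the set of inflammatory factors that senescent cells release. JunB is a subunit of AP-1, a dimer of the Jun and Fos families that recognises a short palindromic site, and NF-κB is the other factor best known at the Ccl2 gene, where a distal control element upstream of the promoter carries its sites.

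Sequences of the regions that more than 1 library held were read from the mm10 reference and are shown first. Regions A, C and F held a peak in all 4 JunB lists, and region B held one in 3 lists and lay on an H3K27ac peak. Each stretch for A and F is the part that the peaks of all 4 libraries share. The stretch for C is that shared part extended to the AP-1 site beside it, and the stretch for B is the neighbourhood of its AP-1 site, which holds none of the B summits and lies outside the Young 2 peak. Capitals mark the AP-1 site (TGACTCA or, on the other strand, TGAGTCA), the NF-κB consensus, and TGAATCA or its reverse TGATTCA, which differs from the AP-1 site by 1 base.
Region A, chr11:82007010-82007265, plus strand: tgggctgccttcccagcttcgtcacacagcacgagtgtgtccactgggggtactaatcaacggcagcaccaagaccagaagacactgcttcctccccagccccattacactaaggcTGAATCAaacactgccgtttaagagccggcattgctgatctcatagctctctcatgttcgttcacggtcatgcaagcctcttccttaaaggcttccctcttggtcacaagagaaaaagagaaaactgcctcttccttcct
Region B, chr11:82011896-82011956, plus strand: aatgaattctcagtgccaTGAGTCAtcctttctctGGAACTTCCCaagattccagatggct
Region C, chr11:82033074-82033354, plus strand: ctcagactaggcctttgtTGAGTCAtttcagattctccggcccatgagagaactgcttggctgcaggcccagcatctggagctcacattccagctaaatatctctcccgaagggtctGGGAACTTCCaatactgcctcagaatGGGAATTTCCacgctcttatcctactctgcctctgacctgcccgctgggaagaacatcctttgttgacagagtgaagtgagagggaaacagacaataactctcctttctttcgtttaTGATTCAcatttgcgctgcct
Region F, chr11:82071294-82071546, plus strand: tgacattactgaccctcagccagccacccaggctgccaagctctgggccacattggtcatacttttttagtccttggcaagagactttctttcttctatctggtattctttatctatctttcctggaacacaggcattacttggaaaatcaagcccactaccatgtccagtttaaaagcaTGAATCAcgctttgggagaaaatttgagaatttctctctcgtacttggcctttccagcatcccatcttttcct

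The 7 JunB regions were spread unevenly over the cluster. Ccl2 was the nearest member of 4 of them (A to D), Ccl7, Ccl11 and Ccl8 of 1 each (E, F and G), and Ccl12 and Ccl1 of 0. The window held 5, 4 and 3 JunB peaks in Young 1, 2 and 3 (4 ± 1, SD, n = 3) and 6 in the aged library, together with 8 H3K27ac peaks. The aged count was the highest, and the aged list was also the longest. Per 10000 peaks of its own list, the aged library had 4.25 peaks in the cluster, below the 5.24, 8.19 and 7.77 of the young libraries, so the order of the ages turned with the scale. Each JunB library was denser here than over its chromosomes as a whole, with 14.5, 11.6, 8.71 and 17.4 peaks per Mb of window in Young 1, 2, 3 and aged against 3.44, 1.76, 1.39 and 5.16. For H3K27ac the window had 23.2 peaks per Mb against 14.5. The window was drawn around TSSs and the chromosomes were taken whole, so these densities are not like for like. Those of JunB rest on 5, 4, 3 and 6 peaks, and regions A, C and F count in every library. The nearest JunB regions beyond the cluster lay 1057 kb to the left of region A and 627 kb to the right of region G.

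**Figure D1:**
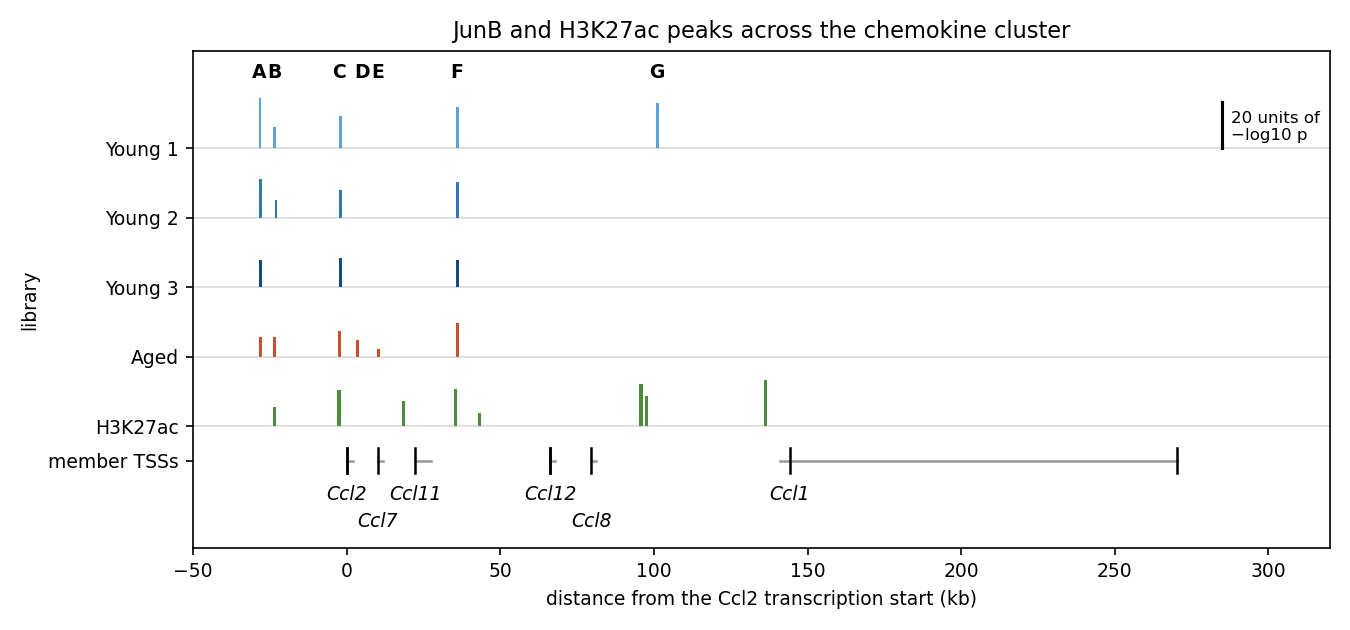
JunB and H3K27ac peaks of the cluster, plotted by distance from the Ccl2 TSS (kb). Each bar is 1 peak, its height is the −log10 p of the peak in its own list (scale bar at the upper right), and bars are drawn at least 0.9 kb wide so that they can be seen. Black ticks mark the TSSs of the members, grey lines their gene bodies, and letters the 7 JunB regions. The columns A, C and F recur in all 4 JunB rows, while D and E appear in the aged row alone and G in the Young 1 row alone.

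Ccl2, the main monocyte attractant of the cluster, was the one member with a JunB peak near a TSS in every library. This was region C (chr11:82032804-82033529), in an intron of the overlapping gene Gm17268 and upstream of the Ccl2 TSS. The edge of the peak nearest to that TSS lay at −2205, −2217 and −2202 bp in Young 1, 2 and 3 and at −2042 bp in the aged library, where negative is upstream. The summits, the points of highest signal, fell within 115 bp of each other. Over all 2470 regions found in all 4 lists the median of that spread was 88 bp, with quartiles at 55 and 162 bp. Region C therefore stood within 3 kb of Ccl2 but not within 1 kb, and no peak of any library covered the Ccl2 TSS itself.

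Further upstream of Ccl2, regions A and B lay in an intron of the long non-coding RNA gene Gm31522. They lay 12653 and 7521 bp downstream of the Gm31522 TSS, which was nearer to them than the Ccl2 TSS. Region A (chr11:82006899-82007314) ended −28257 bp from the Ccl2 TSS and had a peak in all 4 lists, with summits within 77 bp of each other. Region B (chr11:82011636-82012446) ended at −23125 bp and had a peak in Young 1, Young 2 and the aged library but none in Young 3. Its summits were scattered over 334 bp, wider than the upper quartile of the regions found in all 4 lists. Region D (chr11:82038725-82039292) lay 3115 bp downstream of the Ccl2 TSS, in intergenic DNA and −163 bp from the TSS of Gm17268, and had a peak in the aged library alone. The 3 regions shared by all 4 lists that lay within 50 kb of Ccl2 were thus A, C and F, of which C was the closest.

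Ccl7, a second monocyte attractant, had a peak over its TSS in the aged library alone. This was region E (chr11:82045512-82045822), whose summit lay at −13 bp from the TSS. It was the weakest of the 18 JunB peaks, with a −log10 p of 3.387, a −log10 q of 0.771 and a fold of 3.107. Only 0.559% of the aged list had a lower −log10 p. Young 2 and Young 3 started above that value, so a peak as weak as this could not have been listed for them, and Young 1, whose list started at 3.01, had none. Among the 91 aged peaks no stronger than E, E included, 91.2% were in no other JunB list.

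Ccl11, the eosinophil attractant, had no JunB peak within 3 kb in any library. Its nearest region was F (chr11:82071135-82071679), 13312 bp downstream of its TSS in intergenic DNA and past the end of the gene, with a peak in all 4 lists and summits within 112 bp of each other. F lies between Ccl11 and Ccl12, and its nearest edge was −30166 to −30299 bp from the Ccl12 TSS in the 4 libraries. It was also the closest JunB region to Ccl12, a monocyte attractant found in mice, which had none of its own. For Ccl8, the closest region was G (chr11:82136165-82136653), 20980 bp downstream, and it had a peak in Young 1 alone. Without Young 1, region F became the nearest for Ccl8, −43506 to −43639 bp away. For Ccl1, a ligand of Ccr8, region G lay 43159 bp from the nearest TSS, and Young 2, Young 3 and the aged library had no JunB peak within 50 kb of it.

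Of the 7 regions, 3 had a peak in all 4 lists, 1 in 3 lists and 3 in 1 list. Over the genome 12.9% of JunB regions were in all 4 lists and 65.8% in 1 list. Peaks of both ages met in 4 of 7 regions, against 28.9% of all regions, and 2 of 7 belonged to the aged library alone, against 44.8%. The share of shared regions was higher here than over the genome, as a description of 7 regions and without a test.

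The strength of the shared peaks was set beside the young spread in the plot of peak strength by region. At region A the −log10 p was 21.59, 16.59 and 11.52 in Young 1, 2 and 3 and 8.528 in the aged library. The fold enrichment there was 8.88, 7.817 and 7.466 against 5.068, and the young mean was 8.05 ± 0.736 (SD, n = 3). The aged value lay below all 3 young values on both scales. At region C the −log10 p was 13.66, 11.98 and 12.42 in Young 1, 2 and 3 and 11.03 in the aged library. The fold enrichment was 7.188, 6.683 and 7.842 against 5.485, with a young mean of 7.24 ± 0.581 (SD, n = 3), and the aged value was again the lowest. At region F the −log10 p was 17.54, 15.38 and 11.74 against 14.58, and the fold enrichment 8.648, 7.94 and 7.586 against 8.002, with a young mean of 8.06 ± 0.541 (SD, n = 3). Here the aged value fell inside the young range.

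An aged fold enrichment below all 3 young values was therefore seen at 2 of the 3 shared regions, and at 62.7% of all regions found in all 4 lists, so the lower aged values at A and C were what most shared regions showed. The scale also set the order. Ranked within its own list, the aged peak at C stood at the percentile 78.4 against 71.2, 28.5 and 40 in Young 1, 2 and 3, and the aged peak at F at 87.8 against 78.8, 48.8 and 34.2. Both lay above all 3 young percentiles, which held for 53.4% of the regions found in all 4 lists. At A the aged percentile of 65.4 lay within the young values of 83.9, 54.8 and 32.6. Divided by the median fold of its own list, the aged value fell within the young range at A (1.03 against 0.921 to 1.71), at C (1.11 against 0.863 to 1.38) and at F (1.62 against 0.936 to 1.66). No difference between the ages at A, C or F held on all of these scales.

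**Figure D2:**
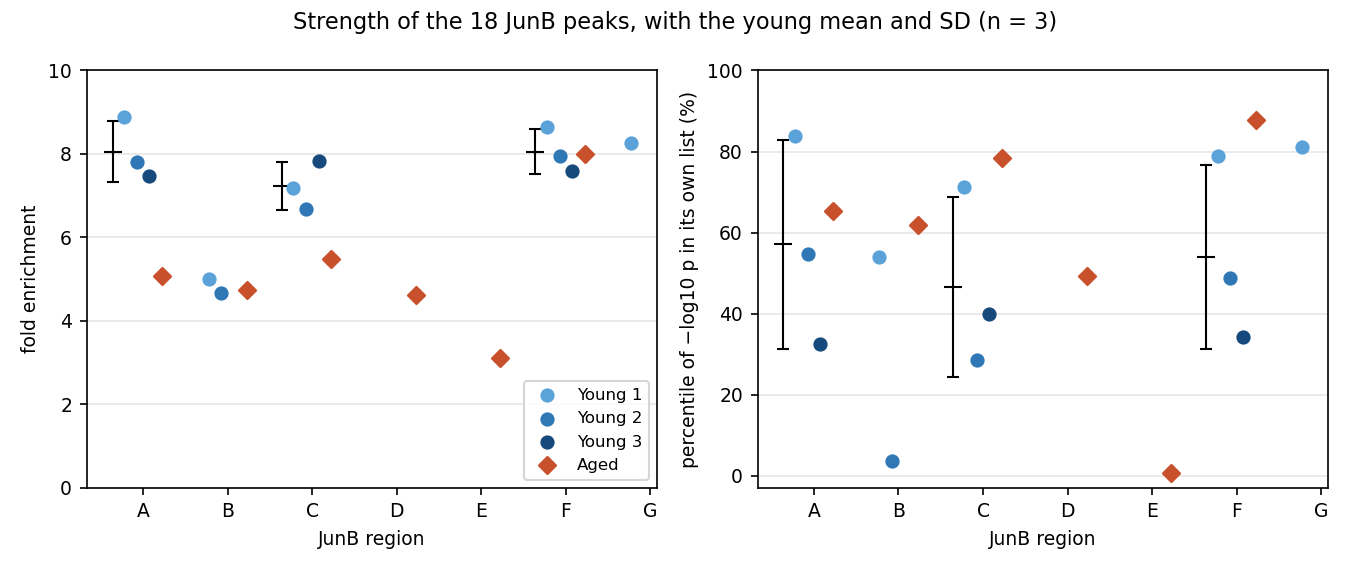
Strength of the 18 JunB peaks in the 7 regions, as fold enrichment (left) and as the percentile of −log10 p within the library's own list (right, in %). Circles are the young libraries, diamonds the aged library, and the black bars the young mean and SD (n = 3), drawn where all 3 young libraries had a peak. At A and C the aged diamond lies under the young circles on the left but not on the right.

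The aged peaks at C and F were also broader, with 726 bp at C against 313, 344 and 260 bp in Young 1, 2 and 3, and 545 bp at F against 358, 304 and 253 bp. At A the aged width of 259 bp lay within the young widths of 256 to 416 bp. An aged peak wider than all 3 young peaks was found at 46.6% of the regions shared by all 4 lists. Region B was weaker than A and C in each library that held it. Its −log10 p was 9.094 in Young 1, 7.554 in Young 2 and 8.273 in the aged library, and the fold enrichment was 5.014, 4.679 and 4.739. In Young 2 only 3.69% of the list was weaker than the peak at B.

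Regions D and G were single-library peaks of unlike strength. The aged peak at D reached a −log10 p of 7.163 at a fold of 4.621, near the middle of its list at the percentile 49.2. Of the 7171 aged peaks at least as strong, D included, 39.5% were in no other JunB list. The Young 1 peak at G reached a −log10 p of 19.39 at a fold of 8.267, the second strongest of the 18 peaks by −log10 p after A in the same library. It had no counterpart in the other 3 lists, and of the 1790 Young 1 peaks at least as strong, 1.56% (28 peaks, G included) were in no other JunB list. This group of strong, unshared peaks was counted after the value of G was seen.

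H3K27ac overlapped 3 of the 7 JunB regions, B, C and F, against 42.5% of all JunB regions. By library, 3 of 5, 3 of 4 and 2 of 3 peaks of Young 1, 2 and 3 and 3 of 6 peaks of the aged library lay on the mark, against 46.8%, 61.8%, 61.2% and 47.1% of the whole lists. Among the regions found in all 4 lists the mark covered 2 of 3 (C and F) against 69.9%, and among those found in 1 list 0 of 3 against 32.0%. These shares were near their backgrounds or rested on too few regions to be read further. Region A was the shared region without the mark, and the nearest H3K27ac peak lay 4354 bp away. Region G lay 2463 bp from one, D 4975 bp and E 7839 bp.

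The H3K27ac peak at C (chr11:82032541-82033750) reached a −log10 p of 15.58 at a fold of 4.863, and it contained the whole of region C. The JunB summits did not sit on its summit. They lay 391, 336 and 451 bp from it in Young 1, 2 and 3 and 433 bp from it in the aged library, all on the side of the Ccl2 TSS. At F the H3K27ac peak (chr11:82070584-82071595) had a −log10 p of 15.92 and covered 84.6% of the JunB region, and the JunB summits again lay to one side, at 472, 360, 464 and 372 bp. Over all JunB summits inside an H3K27ac peak the median distance to the H3K27ac summit was 150, 142, 152 and 153 bp in Young 1, 2, 3 and aged, and 25.2% to 26.4% of them lay at least as far away as the nearest at C. At B the H3K27ac peak (chr11:82011668-82012386) was weaker, with a −log10 p of 8.083, it covered 88.7% of the region, and the JunB summits lay at −379, −45 and −99 bp in Young 1, Young 2 and aged. JunB therefore stood off the acetylation summit at C and F in all 4 libraries, by more than the median distance. The H3K27ac peaks at C and F, 1210 and 1012 bp wide, were also wider than the median of 730 bp in their list.

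**Figure D3:**
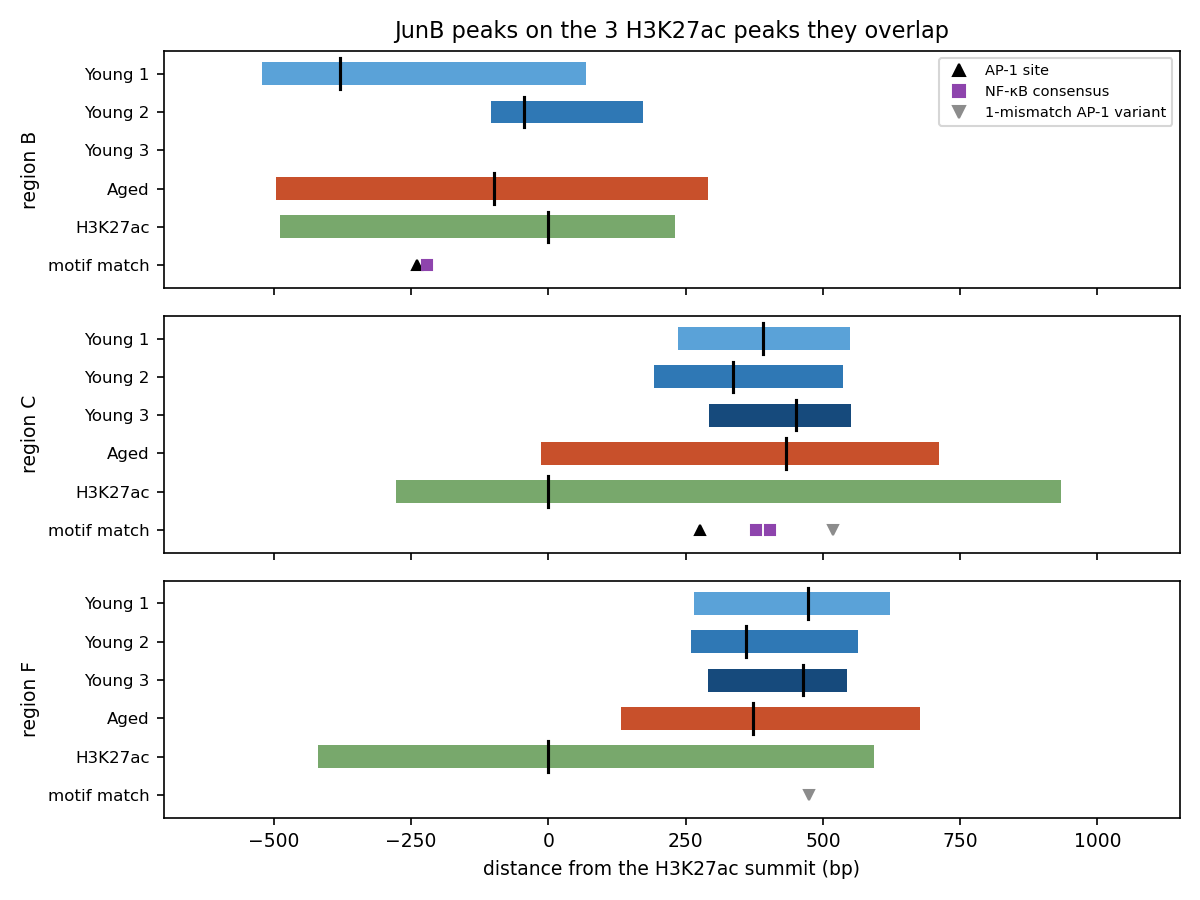
JunB peaks (coloured bars), the H3K27ac peak they overlap (green) and motif matches at regions B, C and F, plotted by distance from the H3K27ac summit (bp, plus strand to the right). Black ticks mark the summits. At C and F all 4 JunB summits lie between 336 and 472 bp to the right of the H3K27ac summit, and Young 3 has no peak at B.

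The other 5 of the 8 H3K27ac peaks in the window carried no JunB region, and 20.1% of H3K27ac peaks genome-wide overlapped one. They lay at −3614 bp from the Ccl11 TSS, at 20494 bp downstream of it, at 15518 and 17393 bp downstream of the Ccl8 TSS and at 7613 bp downstream of the Ccl1 TSS. The last had the highest −log10 p of the 8, 19.92, above 84.9% of the H3K27ac list. Within 3 kb of a TSS, Ccl2 had 1 H3K27ac peak and the other 5 members had 0, while 49.8% of protein-coding genes had one. The mark was thus listed mostly between the genes, and the part of the cluster from Ccl12 to Ccl1 carried acetylation without a JunB region that more than 1 library held.

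The AP-1 site was searched on both strands and was found in 2 of the 7 regions, B and C, against 25.2% of all JunB regions and 59.0% of those in all 4 lists. Of the 3 regions that all 4 lists held, C was the only one with a full site. The match at C (chr11:82033092-82033098) lay 111, 56, 171 and 153 bp from the summits of Young 1, 2, 3 and aged, and in Young 3 it lay outside the peak. The match at B (chr11:82011914-82011920) lay 136, 192 and 138 bp from the summits of Young 1, Young 2 and aged, and in Young 2 it lay outside the peak. No peak of the cluster had a full AP-1 site within 50 bp of its summit, and 1 had it within 100 bp. In the whole lists 5.52%, 6.35%, 7.55% and 3.7% of the peaks of Young 1, 2, 3 and aged had one within 50 bp, and 12.5%, 15.2%, 16.3% and 8.5% within 100 bp.

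The form TGAATCA, which was looked at after the values were seen, was found in most of the regions but not in B or D. It stood in 5 of the 7 regions (A, C, E, F and G) and in all 3 regions that the 4 lists shared, against 9.80% of all JunB regions and 20.9% of those in all 4 lists. At A the match (chr11:82007126-82007132) lay 5, 70 and 6 bp from the summits of Young 1, 2 and 3 and 1 bp from the aged summit. At F it (chr11:82071474-82071480) lay under the summit of Young 1, 7 bp from that of Young 3, and 111 and 99 bp from those of Young 2 and aged. At C it lay 65 to 180 bp from the summits, and the 2 matches of G lay 68 and 42 bp from its summit. A match describes these letters in the reference and is not a measured site. Longer regions have more room for a match, and the 7 regions were 311 to 811 bp wide. The background shares of this form and of the NF-κB consensus below were not matched for width.

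The NF-κB consensus, also chosen after the values were seen, stood in 4 of the 7 regions (A, B, C and D) against 9.85% of all JunB regions, and in 2 of the 3 that all 4 lists held (A and C) against 15.8%. Region C held 2 matches, 16 bases apart, and the 4 JunB summits fell 8 to 63 bp from the second of them (GGGAATTTCC, chr11:82033217-82033226). The AP-1 site of C ended 92 bases before the first match (GGGAACTTCC), and its TGATTCA began 107 bases after the second. In region B 10 bases lay between the AP-1 site and the NF-κB match (GGAACTTCCC). The match in B lay outside the Young 2 peak. The match in A lay inside the Young 1 peak alone and at least 201 bp from every summit, and that in D 28 bp from its summit. Promoter sequences from RefSeq (mm10) were matched for Ccl12, Ccl8 and Ccl1, which had no JunB peak there, and none of the 3 held the AP-1 site, which was found in 5.2% of 32851 mouse promoters of that length. The Ccl1 promoter held 2 matches of the NF-κB consensus, found in 8.46% of those promoters. No such promoter sequence was available for Ccl2, Ccl7 and Ccl11. Region E, which covers the Ccl7 TSS, held 0 AP-1 sites, 0 NF-κB matches and 1 TGATTCA.

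GC content of the 7 regions was 47.2% to 51.4% in A to F and 38.7% in G, against a median of 48.6% over JunB regions. Repeat-masked bases made up 5.67% to 14.7%, against a median of 9.88%.

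Counted gene by gene, the members divided into a group with many JunB regions and a group with few. Within 50 kb of a TSS there were 6 JunB regions for Ccl2, 6 for Ccl7 and 5 for Ccl11, but 2 for Ccl12, 2 for Ccl8 and 1 for Ccl1. The median over protein-coding genes was 1, and 5.35% of them had at least 5. Regions found in all 4 lists numbered 3, 3 and 2 for Ccl2, Ccl7 and Ccl11, 1 for Ccl12, 1 for Ccl8 and 0 for Ccl1. At least 1 such region lay near 5 of the 6 members, against 17.2% of genes, and at least 3 lay near 2 of the 6, against 0.789%. Neighbouring members share the same regions, so these are not independent counts. Library by library, 6, 5, 5 and 5 members had a peak within 50 kb in Young 1, 2, 3 and aged, against 40.4%, 27.5%, 23.4% and 58.4% of genes. H3K27ac lay within 50 kb of all 6, against 76.6%. Within 3 kb the counts were 1, 1, 1 and 2 members, against 11.0%, 7.74%, 5.91% and 23.9% of genes, and the second member in the aged library was Ccl7 with its weak peak E.

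**Figure D4:**
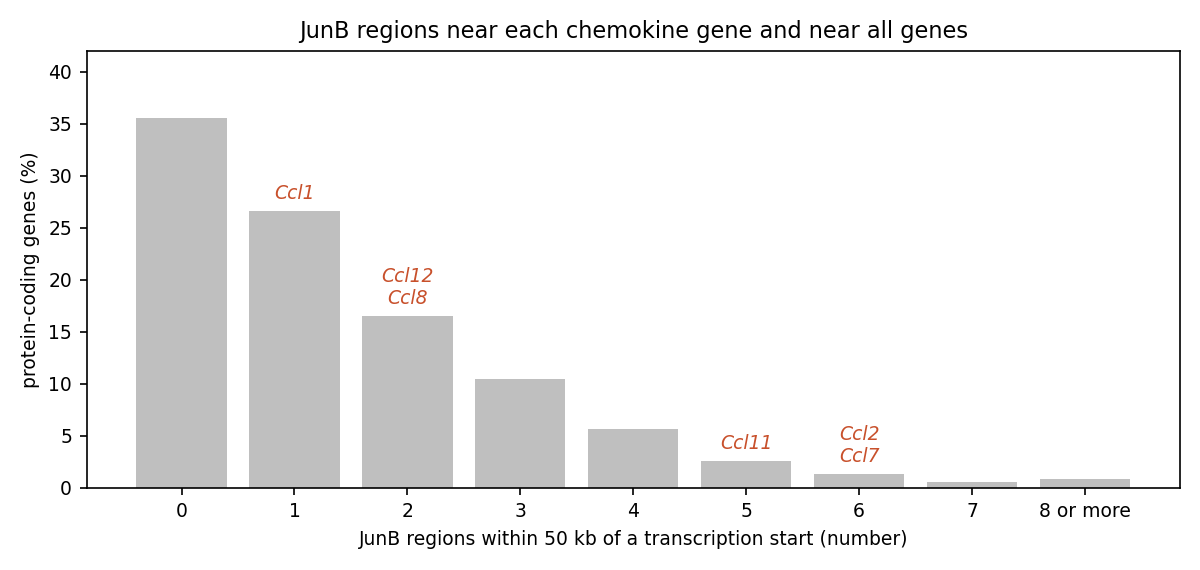
JunB regions (4 libraries merged) within 50 kb of a TSS, as the number per gene on the horizontal axis and the share of 21938 protein-coding genes on the vertical axis (%, grey bars). The names of the 6 members stand over the bar of their own count. Ccl2 and Ccl7, with 6 regions, and Ccl11, with 5, stand to the right of most genes, while Ccl12, Ccl8 and Ccl1 have 1 or 2.

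The other CC chemokine ligands and the receptors were read in the same way. Of 15 other ligands, 0 had a JunB peak within 3 kb in any young library, and 2, Ccl25 and Ccl27a, had one in the aged library. Over all protein-coding genes the shares within 3 kb were 11.0%, 7.74%, 5.91% and 23.9% in Young 1, 2, 3 and aged. Within 50 kb, 7, 5 and 6 of the 15 had a peak in Young 1, 2 and 3 and 12 in the aged library, and 5 had a region found in all 4 lists (Ccl5, Ccl9, Ccl24, Ccl26 and Ccl28). Of all protein-coding genes, 40.4%, 27.5%, 23.4% and 58.4% had a peak within 50 kb, and 17.2% had a region found in all 4 lists. Ligand genes that lie close together can count the same region, so these are not independent counts. Ccl3, Ccl4 and Ccl6, which lie further along the same chromosome, had none within 50 kb. Of 13 receptor genes, 0 had a JunB peak within 3 kb in any library. Within 50 kb, 3, 1, 1 and 7 of the 13 had one in Young 1, 2, 3 and aged, and 8 had an H3K27ac peak. Ackr2 alone had a JunB peak within 50 kb in all 4 libraries (1, 2, 1 and 3 peaks). Ccr2 and Ccr3, which receive the signals of Ccl2 and Ccl11, had no JunB or H3K27ac peak within 50 kb. Ccr8, the receptor of Ccl1 and Ccl8, had 1 JunB peak within that distance in Young 1 and 1 in the aged library, as had Ccr1.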

How the data were processed

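JunB and H3K27ac CUT&RUN libraries of sorted mouse MuSCs were deposited as 1 peak list per library. Per the labels and the study's methods, the authors aligned trimmed reads to mm10 (Bowtie2), dropped redundant reads and called peaks with MACS2. A p cutoff was stated for JunB peaks, but the Young 2, Young 3 and H3K27ac lists began at a −log10 q of 2.26, 2.1 and 2.04 and the Young 1 and aged lists at 0.405 and 0.672. Versions, control library and blacklist were not given in the sources used here. Deposited values were a fold enrichment (ratio) at the summit, a −log10 p and a −log10 q per peak, and an integer score that was not used. MACS2 scales these values to each library. The study's reporting summary gave a JunB read total without naming a library, and read numbers were not used here. Depth and counting intervals of each library could therefore not be given.

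Peaks within 50 kb of a GENCODE M21 TSS of a member were taken, and JunB peaks overlapping by at least 1 bp were merged across libraries. A TSS peak lay within 3 kb. Annotation, motifs and sequences came from the mm10 reference (no peak ran past a chromosome end) with Python 3.11.15, pysam 0.24.0, samtools 1.23.1 and matplotlib 3.10.9. Overlap, distance and motif steps were tested on simulated data beside bedtools 2.31.1. Motif shares used the 18879 regions on assembled chromosomes. All 6 members were described, and regions were given in full where they overlapped H3K27ac, lay within 3 kb of a TSS or occurred in at least 2 lists; A to G were few enough that the rest were named too. Members, lists and rules were chosen with earlier results of these data known. Alternatives varied the window, thresholds, list lengths, annotation, overlap rule, motif and each young library.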

Additional observations from a re-analysis of the deposited data

How the results depend on the processing

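Of 220 values recomputed under other settings, 186 were unchanged or within 1.5 times and 34 moved further. A window of 100 kb, RefSeq TSSs, 1 TSS per gene, other merge gaps and overlap rules, summit or midpoint distances and stricter or extended H3K27ac peaks moved none. With a window of 20 kb, 4 regions remained, Young 1 and Young 2 had 2 peaks each, 2 regions held both ages, and Ccl2 was nearest to 2 regions and Ccl8 to 0. With a promoter distance of 1 kb, 0 members had a peak in Young 1, 2 and 3 and 1 (Ccl7) in the aged library. A −log10 q of at least 2, or the −log10 p of 5.33 that all JunB lists reached, removed region E, leaving 1 region of the aged library alone, 1 member with an aged peak and 0 regions nearest to Ccl7. Cutting each list to its 3863 strongest peaks left 4 regions (A, C, F and G), 2 aged peaks, 1 region in 1 library, 2 with both ages, 0 of the aged library alone, 1 member with an aged peak, 2 regions nearest to Ccl2 and 0 nearest to Ccl7; the aged peak at A was lost while those at C and F were kept. Leaving out a young library in turn gave 0 to 1 regions nearest to Ccl8, 0 without Young 1. The AP-1 counts of 2, 1, 0 and 2 peaks in Young 1, 2, 3 and aged became 0 in each library within 50 bp of the summit, 0, 1, 0 and 0 within 100 bp, and 5, 3, 3 and 6 with 1 mismatch allowed, which 75.8%, 82.2%, 82.2% and 69.6% of the whole lists also met. No paired analysis was possible because the aged group is 1 library and the results come from no test. The missing read counts, the single aged library and the unequal lists limit every statement on age.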

Other observations

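The peak at G, which Young 1 alone held, was among the strongest in the cluster, and peaks of that strength without a counterpart made up 28 of 1790 in that library. Region B, the weakest of those found in more than 1 list, held an AP-1 site and an NF-κB match 10 bases apart, both outside the Young 2 peak. Only region C held an AP-1 site, 2 NF-κB matches and a TGATTCA together on an H3K27ac peak. How many JunB regions of the genome hold this combination was not counted. The AP-1 site of C lay outside the Young 3 peak. The NF-κB and TGATTCA forms were chosen after the values were seen. These values were noticed in the data and were not tested.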
